A study of Mus musculus with 6 samples.

Results

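A set of 42 genes for matrix proteins, secreted signals, transporters and transcription factors of meningeal fibroblasts, with the collagens left out, was examined in mouse embryonic forebrain of wt and Dyrk1a heterozygous embryos. The genes were chosen by name, with earlier results of these data known. All 42 were found among the 33084 genes of the deposited count table. Bulk RNA sequencing had been done on forebrains microdissected at embryonic day 15.5 from the Dyrk1a+/- line, 3 from wt embryos and 3 from Dyrk1a+/- embryos, here called heterozygotes. Dyrk1a encodes a kinase of brain growth. The labels call the samples biological replicates and give no sex, litter, strain or structure of the mutant allele, nor whether a sample is a single embryo, so p-values measure the spread between these samples.

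The meninges are the membranes around the brain. Their fibroblasts secrete the basement membrane at the pial surface, on which the endfeet of radial glia rest, and a looser collagenous matrix above it. They also release signals to the cortex beneath, among them the chemokine Cxcl12, which guides Cajal-Retzius cells and interneurons, and bone morphogenetic proteins (BMPs). Forkhead factors of the Foxc and Foxd families are needed for or mark these cells. Several of the matrix genes are also used by pericytes, endothelium or neural progenitors, so not every member marks fibroblasts alone.

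The 6 libraries held 18699434 to 32865708 counts. A pair of libraries, 1 of each genotype (wt replicate 3 and heterozygote replicate 2), separated from the remaining 4 along principal component 1, which carried 34.9% of the variance, and had a larger share of 7SK, RNase P and RNase MRP RNA (4.46% and 4% of counts, against 2.57% to 3.01%). Differences are therefore also given inside this pair and inside the 4 other libraries. Dyrk1a itself was at 177, 186 and 160 CPM (counts scaled to a library size of 1000000) in wt and 149, 147 and 158 CPM in heterozygotes, with no overlap between groups (log2 fold change -0.20, SE 0.079; edgeR quasi-likelihood test, Benjamini-Hochberg adjusted p = 0.59). The forebrain markers Emx1 and Dlx1 were at 26.0 and 87.0 CPM in wt, while hindbrain and spinal cord markers summed to 0.386 to 0.714 CPM per library and Hoxb2 had no count.

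The promoters of the matrix gene Postn, the transporter gene Slc6a13 and the serpin gene Serpinf1 are shown first, because these were among the members with the clearest separation of the genotypes. Of 42 members 29 had an entry in RefSeq's table of gene starts on GRCm38.p6. Itih2 and Lama2, which also separated, are not shown because the listed start lay 713 and 2816 bases from the 5′ end of the GENCODE gene. Each sequence runs 5′ to 3′ and ends before the first annotated base in either source. Capitals mark a TATA box (TATAAA) or a GC box (GGGCGG), searched on both strands together with a forkhead core (TGTTTAC) and an E-box (CATATG).
Postn, chr3:54360857-54361106, plus strand: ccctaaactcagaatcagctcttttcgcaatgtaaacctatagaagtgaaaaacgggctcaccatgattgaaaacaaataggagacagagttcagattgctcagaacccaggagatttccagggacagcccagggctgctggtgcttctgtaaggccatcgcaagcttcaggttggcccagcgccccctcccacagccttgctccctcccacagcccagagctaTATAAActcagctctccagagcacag
Slc6a13, chr6:121300038-121300226, plus strand: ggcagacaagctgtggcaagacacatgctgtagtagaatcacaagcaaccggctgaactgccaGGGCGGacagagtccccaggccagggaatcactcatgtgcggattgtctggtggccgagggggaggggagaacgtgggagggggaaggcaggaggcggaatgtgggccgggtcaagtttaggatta
Serpinf1, chr11:75422702-75422873, minus strand: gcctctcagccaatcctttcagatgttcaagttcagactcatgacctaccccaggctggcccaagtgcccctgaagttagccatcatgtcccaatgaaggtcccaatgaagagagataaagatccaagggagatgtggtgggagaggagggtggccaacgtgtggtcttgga

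In Postn a TATA box began 26 bases before the start, and in Slc6a13 a GC box lay further upstream. The printed Serpinf1 sequence held none of the searched letters. The 78 bases next to the RefSeq start of Serpinf1, and 61 next to that of Slc6a13, had been cut and were not part of this search. Over the 29 member windows of 250 bases, 3 held TATAAA, 17 GGGCGG, 0 TGTTTAC and 1 CATATG. Of all 32851 windows of that length 12.4%, 32.7%, 3.17% and 3.46% held them. These matches describe letters in a window and say nothing of binding.

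Most members were slightly lower in the heterozygotes, and none passed the test across all genes. Of 42 members 41 had enough counts to be tested, and 37 of these were lower and 4 higher, where 48.8% of all 19403 tested genes were lower. The median log2 fold change over members was -0.20, against 0.0048 over all tested genes. The members were chosen with earlier results of these data known, so these contrasts are not independent evidence. The clearest differences were in Postn, a matricellular protein (0.691 of the wt level), Itih2, a heavy chain of the inter-alpha-trypsin inhibitor (0.538), Slc6a13, a GABA and taurine transporter (0.781), and Serpinf1, pigment epithelium-derived factor (0.748). The forkhead factors Foxc1, Foxc2 and Foxd1 were at 0.983, 0.97 and 0.963 of the wt level. In bulk tissue fewer meningeal cells and less RNA per cell cannot be told apart.

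By edgeR's quasi-likelihood test with Benjamini-Hochberg adjustment over all genes, 0 of 41 members passed at 0.05, and 0.0103% of all tested genes did. DESeq2 also called 0 members, with 0.121% called of the 16511 genes to which it gave an adjusted p. Mgp and Twist1 had no adjusted p there, so DESeq2 could not call them. At an unadjusted p under 0.05, 7 members were lower (background 4.61%) and 0 higher (background 3.27%). For counts in the role groups and lists below, the backgrounds are 48.8% lower and 4.61% lower at an unadjusted p under 0.05. In 12 members all heterozygote libraries lay below all wt libraries (background 7.49%), and in 0 members all lay above (background 6.53%). Without heterozygote replicate 1 the former number was 19 (background 12.4%). When the model held a term for that pair of libraries, 13 members were lower at an unadjusted p under 0.05 (background 8.23%), and 0 passed edgeR's adjusted threshold.

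**Figure D1:**
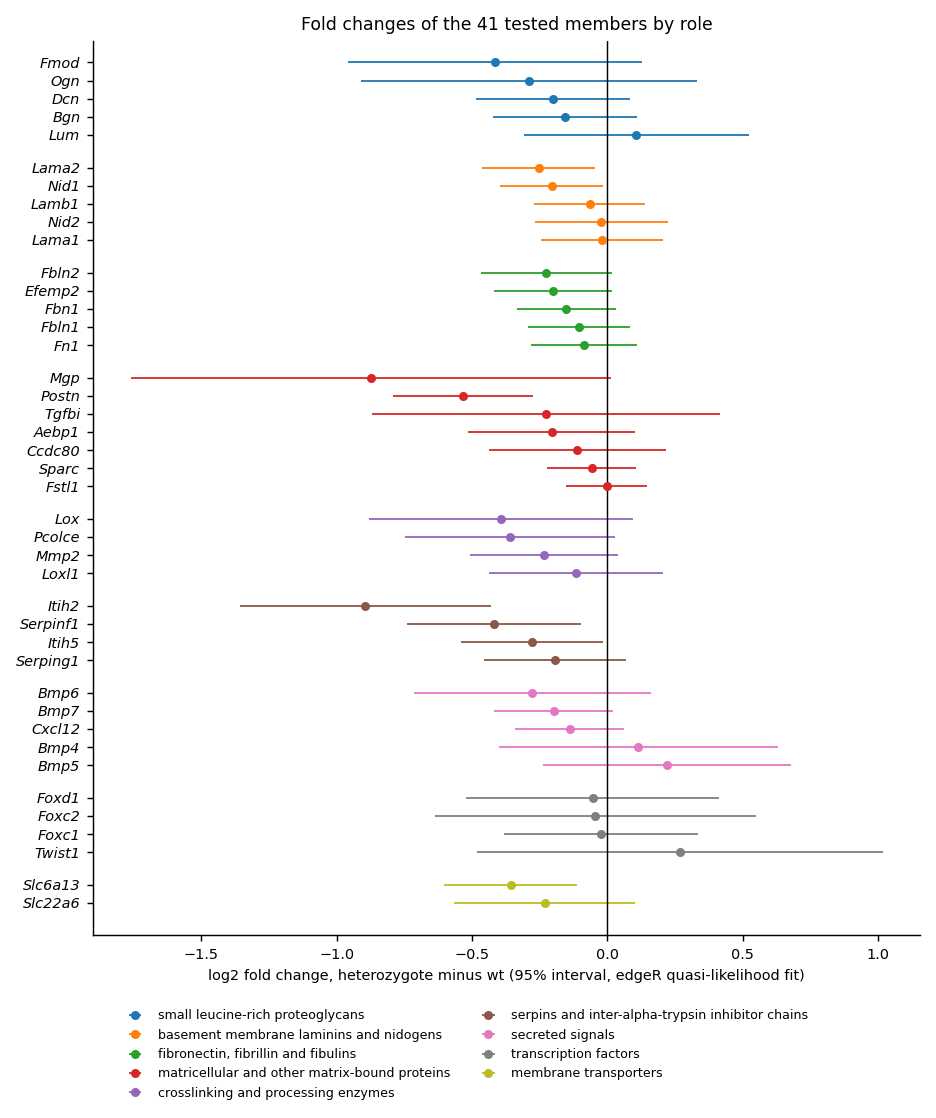
Log2 fold change of each of the 41 tested members (heterozygote minus wt, horizontal axis) with its 95% interval from the edgeR fit, ordered within role groups by colour. Most points lie left of 0, the intervals of 7 members lie wholly below 0, and Lum, Bmp4, Bmp5 and Twist1 are the 4 members right of 0.

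Leaving out 1 library at a time moved the log2 fold change of 27 of 41 members by over 1.5 times, up or down, in at least 1 case. The 14 others included the 12 members of lowest unadjusted p. A low p already means a large difference relative to its SE in these same libraries, so this overlap is no independent check. Among the 27, Slc22a6, Aebp1 and Mmp2 were closest to 0 without heterozygote replicate 3, at -0.081, -0.12 and -0.15. Cxcl12 and Twist1 were closest to 0 without heterozygote replicate 2, at -0.081 and 0.085, and Fn1 without heterozygote replicate 1, at -0.022. Sparc and Fbln1 were at -0.023 and -0.067 without wt replicate 3, and Loxl1 was at -0.015 without wt replicate 2.

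Members were next compared library by library. Their summed level was 1222, 1150 and 1254 CPM in wt replicates 1 to 3 and 1084, 1117 and 1131 CPM in heterozygotes, so the groups did not overlap, although the lowest wt and the highest heterozygote library lay close. The highest value of a member fell in a wt library for 34 of 41 members (49.2% of all tested genes) and the lowest in a heterozygote library for 33 (49% of all). Wt replicate 3 held the highest value of 17 members and wt replicate 1 that of 13. Heterozygote replicate 2 held the lowest value of 13 members, replicate 3 that of 11 and replicate 1 that of 9. Within the pair that stood apart, 37 members were lower in the heterozygote (background 47.4%), and within the 4 other libraries 31 (background 50%). The mean log2 CPM over members differed by -0.23 and -0.17 in these 2 strata.

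**Figure D2:**
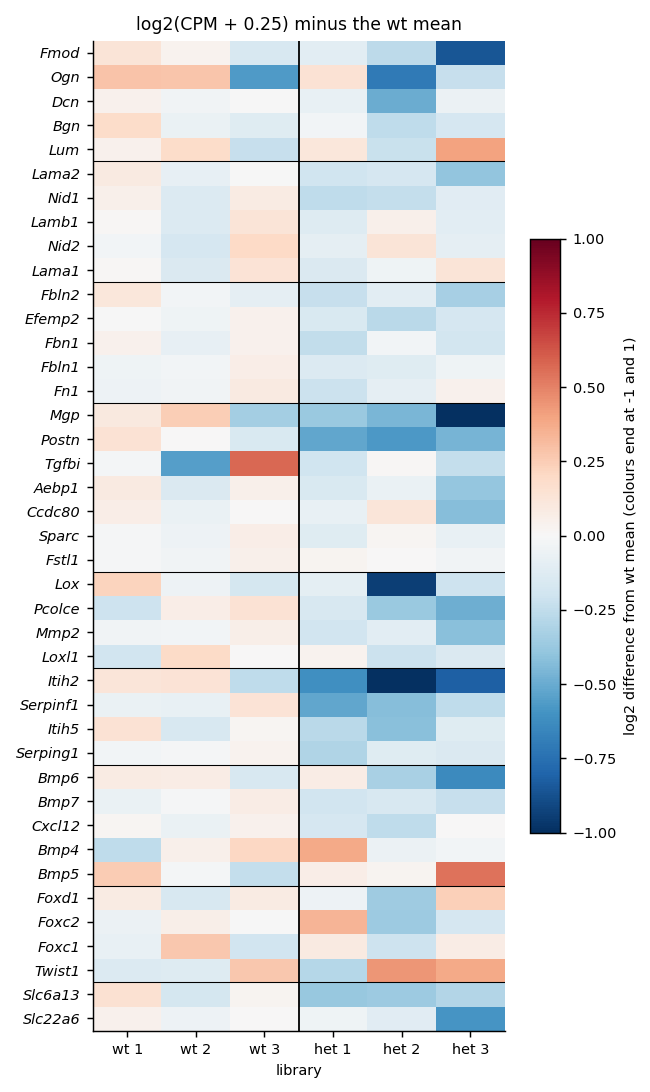
Each row is a tested member and each column a library; colour gives log2(CPM + 0.25) minus the mean of the 3 wt libraries, with black lines between role groups. Blue prevails in the 3 heterozygote columns, most evenly for Postn, Itih2, Serpinf1 and Slc6a13, while the Foxc, Foxd and Twist rows are mixed.

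Levels per length of exon spanned a wide range. The most abundant members were Sparc, a calcium-binding matricellular glycoprotein that is also made by endothelium and glia (25.7 ± 1.11 CPM per kb in wt, SD, n = 3), the follistatin-like protein Fstl1 (18.9 ± 0.628) and fibronectin, Fn1 (16.0 ± 0.858). The nidogens Nid1 and Nid2 followed at 11.6 ± 0.944 and 11.2 ± 1.46 CPM per kb in wt, and did not differ from each other beyond their SD. Lama1, Lamb1, Slc6a13, Fbn1, Fbln1 and Cxcl12 lay between 9.39 and 5.55 CPM per kb. At the lower end were Foxd1, Foxc2 and Twist1 at 0.575, 0.54 and 0.473 CPM per kb. Dpt, dermatopontin, had 3 counts, all in wt replicate 1, and was not tested. In the main fit, the 21 tested members at or above the median level of 14.1 CPM were all lower in heterozygotes. Their median log2 fold change was -0.16, and 48.8% of all tested genes were lower. Of these members, Ccdc80, Fstl1, Lama1, Lamb1 and Nid2 changed sign under alternative settings. Of the 20 below the median level 16 were lower, with a median of -0.22 and a larger median SE (0.20 against 0.098).

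**Figure D3:**
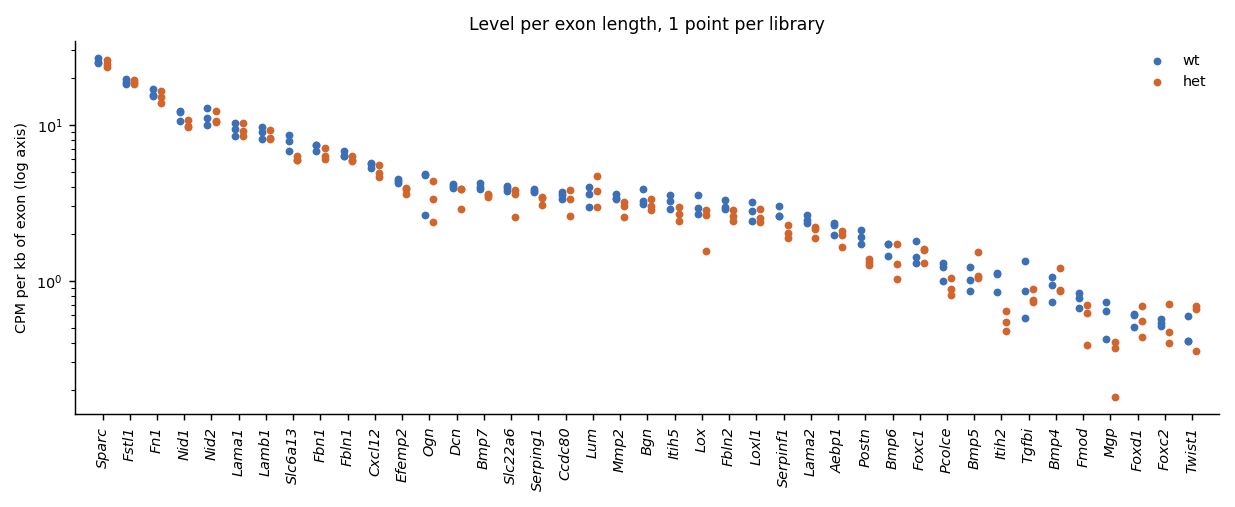
CPM per kb of exon (logarithmic axis) for 41 members, each library a point, wt in blue and heterozygotes in orange, ordered by the wt mean. Levels run from Sparc at 25.7 down to Twist1 at 0.473 CPM per kb in wt, and the genotypes separate for Slc6a13, Postn and Itih2 but not for Sparc, Fstl1 or Fn1.

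The matricellular proteins, which sit in the matrix and act on cells more than they bear load, were led by Postn. Postn, periostin (ENSMUSG00000027750, GRCm38 chromosome 3, 54361109 to 54391037), was at 18.4, 16.7 and 14.9 CPM in wt and 11.5, 11.1 and 12.0 CPM in heterozygotes. All heterozygotes lay below all wt libraries, and they were close to each other. Postn had a log2 fold change of -0.53 (edgeR adjusted p = 0.483; SE 0.114; 95% interval -0.79 to -0.27). An exact permutation test of CPM, 2-sided, gave p = 0.1, which no split of 3 against 3 libraries can go below. Inside the pair the difference was -0.43 and inside the 4 others -0.57, and it was -0.61 to -0.45 with 1 library left out. The adjusted p was 0.0982 with the term for the pair and 0.104 by DESeq2. Tgfbi, a fasciclin-domain protein related to periostin, scattered widely in wt, at 3.27, 2.18 and 5.05 CPM, and lay at 2.85, 3.34 and 2.77 CPM in heterozygotes (log2 fold change -0.23, SE 0.284), with 0.035 in the 4 other libraries alone and 0.13 without wt replicate 3.

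Mgp, matrix Gla protein, an inhibitor of calcification, was rare, with 86 counts in all. It was at 0.763, 0.873 and 0.501 CPM in wt and 0.483, 0.443 and 0.213 CPM in heterozygotes, with no overlap but a narrow gap (log2 fold change -0.87, SE 0.392; edgeR adjusted p = 0.642). It differed by -0.15 within the pair and -1.14 within the 4 others. Sparc stood at 96.3, 93.9 and 102 CPM in wt and 89.4, 98.9 and 92.3 CPM in heterozygotes, with overlapping groups (log2 fold change -0.058, SE 0.073; edgeR adjusted p = 0.899). Fstl1, with a wt mean of 92.8 ± 3.09 CPM and a heterozygote mean of 92.6 ± 2.13 (SD, n = 3), had the smallest difference of the members, at a log2 fold change of -0.0027 (95% interval -0.15 to 0.15), which became 0.024 without wt replicate 3 and 0.013 without heterozygote replicate 3, and 0.0005 and 0.0027 with DESeq2's scaling and test. Ccdc80 and Aebp1, an adipocyte enhancer-binding protein of the matrix, were at -0.11 (SE 0.144; 0.024 without heterozygote replicate 3) and -0.20 (SE 0.136). Of the 7 tested members of this group 7 were lower, with a median of -0.20, and 1 was at an unadjusted p under 0.05 (background 4.61%).

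The serpins and inter-alpha-trypsin inhibitor chains had the lowest median of the role groups, at -0.35, with 4 of 4 lower (background 48.8%). Of these, 3 were at an unadjusted p under 0.05 (background 4.61%), and 0 passed edgeR's adjusted threshold. Itih2 (ENSMUSG00000037254, chromosome 2, 10094593 to 10131396), whose product is linked to hyaluronan, was at 3.69, 3.73 and 2.79 CPM in wt and 2.12, 1.57 and 1.81 CPM in heterozygotes. The groups did not overlap. It had a log2 fold change of -0.89 (SE 0.204; 95% interval -1.36 to -0.43; edgeR adjusted p = 0.483; exact permutation p = 0.1), -0.80 within the pair and -0.89 within the 4 others. Itih5, a chain of the same family whose gene is separated from Itih2 by 22.2 kb, was at 28.2, 22.8 and 25.8 CPM in wt and 21.1, 19 and 23.4 CPM in heterozygotes, with overlap (log2 fold change -0.28, SE 0.117; edgeR adjusted p = 0.615).

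Serpinf1 (ENSMUSG00000000753, chromosome 11, 75409769 to 75422701), a secreted serpin without protease inhibition that blocks vessel growth, was at 6.16, 6.15 and 7.16 CPM in wt and 4.44, 4.75 and 5.39 CPM in heterozygotes. The groups did not overlap (log2 fold change -0.42, SE 0.142; edgeR adjusted p = 0.53; exact permutation p = 0.1). Inside the pair it differed by -0.58 and inside the 4 others by -0.33. Serping1, the complement C1 inhibitor, was at 8.63, 8.73 and 9.03 CPM in wt and 7.10, 8.05 and 7.95 CPM in heterozygotes, again without overlap but with a smaller difference (log2 fold change -0.19, SE 0.116; edgeR adjusted p = 0.737).

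**Figure D4:**
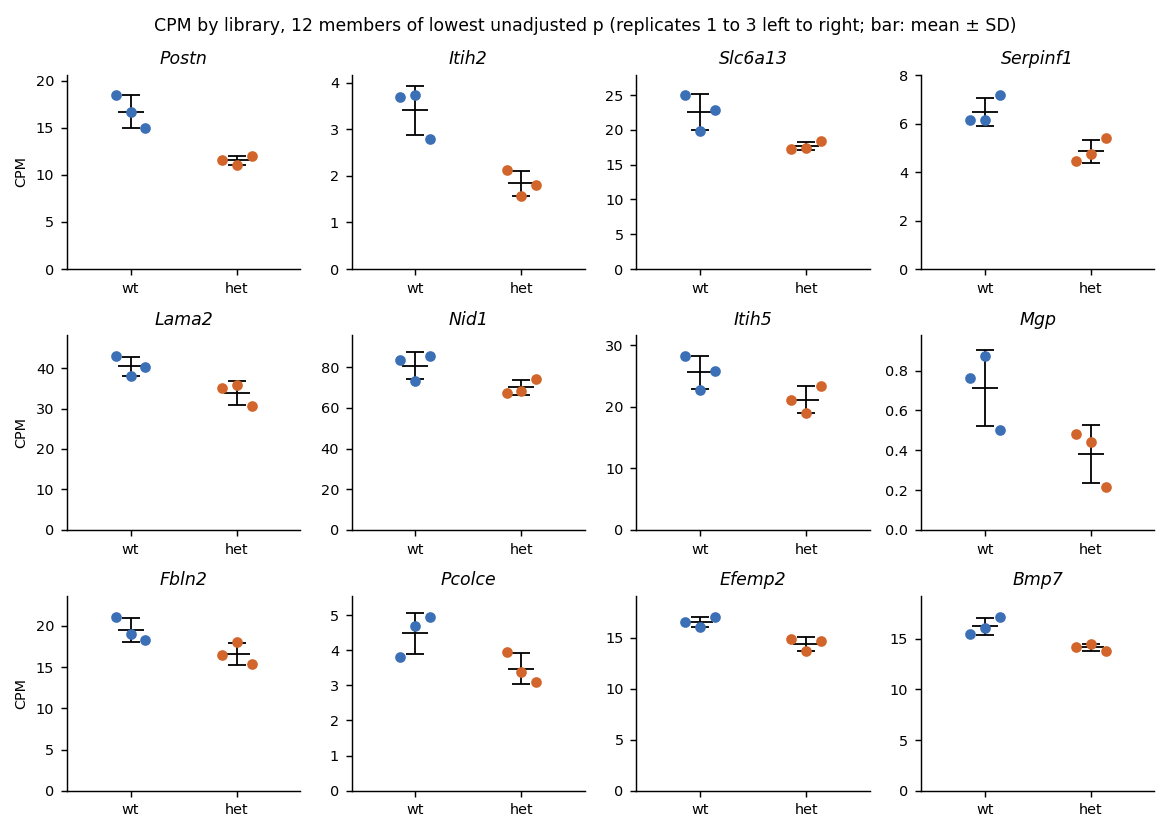
CPM in each library (points, replicates 1 to 3 from left to right) with mean and SD for the 12 members of lowest unadjusted p, each panel starting at 0. Heterozygotes lie below all wt libraries in 9 panels, and the groups overlap for Nid1, Itih5 and Pcolce.

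Both membrane transporters of the set, markers of meningeal fibroblasts in brain, were lower. Slc6a13 (ENSMUSG00000030108, chromosome 6, 121300227 to 121337733), the GABA and taurine transporter GAT2, was at 25, 19.9 and 22.9 CPM in wt and 17.2, 17.4 and 18.4 CPM in heterozygotes. The heterozygotes were close together and below all wt libraries (log2 fold change -0.36, SE 0.108; edgeR adjusted p = 0.512; exact permutation p = 0.1). The difference was -0.40 within the pair and -0.32 within the 4 others. Slc22a6, the organic anion transporter OAT1, overlapped between groups, with a wt mean of 15.6 ± 0.547 CPM and a heterozygote mean of 13.2 ± 2.62 (SD, n = 3), with heterozygote replicate 3 alone well below the rest, at 10.2 CPM.

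In the basement membrane group 5 of 5 were lower, with a median of -0.064, but sizes differed. Laminins are the heterotrimers that form the sheet, and nidogens link it to type IV collagen. Lama2, the alpha chain of laminin in mesenchymal and vascular basement membranes, was at 42.9, 38.1 and 40.2 CPM in wt and 35.2, 35.9 and 30.6 CPM in heterozygotes, with no overlap (log2 fold change -0.25, SE 0.092; edgeR adjusted p = 0.559). Nid1 was at 83.5, 73.2 and 85.4 CPM in wt and 67.4, 68.3 and 74.4 CPM in heterozygotes, where heterozygote replicate 3 lay above wt replicate 2 (log2 fold change -0.21, SE 0.084; edgeR adjusted p = 0.606). Lama1, the alpha chain of the early pial and embryonic basement membrane, Lamb1 and Nid2 were at -0.019, -0.064 and -0.022 (SE 0.09 to 0.108). Without wt replicate 3 they were at 0.051, 0.004 and 0.082; without heterozygote replicate 1 Lama1 was at 0.042 and Nid2 at 0.013, and without heterozygote replicate 3 Nid2 was at 0.014. In the 4 other libraries alone Lama1 was at 0.067 and Nid2 at 0.0064. Nid2 shares 437 exonic bases with Rtraf on the opposite strand, and the strand setting of the counting is not given in the sources used here.

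Fibronectin, fibrillin and the fibulins build the fibrils and elastic fibres of loose matrix, and 5 of 5 were lower, with a median of -0.15 and 0 at an unadjusted p under 0.05. Fn1 was at 180, 182 and 198 CPM in wt and 160, 175 and 192 CPM in heterozygotes, with overlap (log2 fold change -0.085, SE 0.086; edgeR adjusted p = 0.863). Fbln2 was at 21.1, 19 and 18.3 CPM in wt and 16.5, 18 and 15.4 CPM in heterozygotes, the highest heterozygote lying just under the lowest wt library (log2 fold change -0.23, SE 0.107; edgeR adjusted p = 0.668). Efemp2, fibulin-4, was at 16.5, 16.1 and 17.0 CPM in wt and 14.9, 13.7 and 14.7 CPM in heterozygotes, without overlap (log2 fold change -0.20, SE 0.097; edgeR adjusted p = 0.674). Efemp2 shares 173 exonic bases with Mus81 on the opposite strand. Fn1 and Fbn1 share 292 and 2442 with Apol7d and Gm9913 on the opposite strand, which had 70 and 69 counts over all libraries. Fbn1 and Fbln1 overlapped between genotypes, with log2 fold changes of -0.15 (SE 0.081) and -0.10 (SE 0.083).

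Of the small leucine-rich proteoglycans, which bind collagen fibrils and set their spacing, 4 of 5 were lower, with a median of -0.20, and 0 were at an unadjusted p under 0.05. Ogn, osteoglycin, had the highest mean level per length of the group in wt, at 4.08 ± 1.26 CPM per kb (SD, n = 3). Dcn, at 4.06 ± 0.114, did not differ from it beyond the SD. In heterozygotes Lum and Dcn, at 3.815 and 3.544 CPM per kb, lay above Ogn at 3.355. Ogn varied within genotypes, at 12.4, 12.3 and 6.73 CPM in wt and 11.2, 6.08 and 8.59 CPM in heterozygotes (log2 fold change -0.29, SE 0.274, edgeR adjusted p = 0.847). Its lowest library of each genotype belonged to the pair that stood apart, and its difference was -0.084 without that heterozygote library and -0.53 without that wt library. Leaving out wt replicate 1 or 2 gave -0.15 or -0.16, and leaving out heterozygote replicate 1 gave -0.52. Decorin, Dcn, averaged 23.7 ± 0.665 CPM in wt against 20.7 ± 3.39 in heterozygotes (SD, n = 3), with 16.8 CPM in heterozygote replicate 2; the log2 fold change of -0.20 was -0.067 without that library. Bgn, biglycan, and Fmod, fibromodulin, were at -0.16 (SE 0.117) and -0.41 (SE 0.24), and ranged with 1 library left out from -0.22 to -0.055 (the latter without wt replicate 1) and from -0.58 to -0.21 (the latter without heterozygote replicate 3). Lumican, Lum, whose gene lies 47 kb from Dcn on chromosome 10, was at 0.11 (SE 0.183), and at -0.0021 without wt replicate 3 and -0.061 without heterozygote replicate 3.

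The enzymes that crosslink and process the matrix were lower for 4 of 4 genes (median -0.30), with 0 at an unadjusted p under 0.05. Mmp2, the gelatinase, was at 11.3, 11.4 and 12.1 CPM in wt and 10.1, 10.8 and 8.64 CPM in heterozygotes, without overlap (log2 fold change -0.23, SE 0.121; edgeR adjusted p = 0.693). Pcolce, the enhancer of procollagen C-proteinase, was at 3.81, 4.68 and 4.94 CPM in wt and 3.96, 3.38 and 3.09 CPM in heterozygotes, overlapping through wt replicate 1 (log2 fold change -0.36, SE 0.171; edgeR adjusted p = 0.669). Lysyl oxidase, Lox, averaged 14.6 ± 2.11 CPM in wt against 11.2 ± 3.28 in heterozygotes (SD, n = 3), with 7.45 CPM in heterozygote replicate 2. Its log2 fold change of -0.39 (SE 0.215) was -0.16 without that library. Loxl1 was at -0.11 (SE 0.142). Pcolce shares 112 exonic bases with Fbxo24 on the same strand and 112 with Gm36266 on the opposite strand. These overlapping genes had 51 and 195 counts over all libraries, against 605 for Pcolce.

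Among the secreted signals 3 of 5 were lower, with a median of -0.14 and 0 at an unadjusted p under 0.05. Bmp7 was at 15.5, 16.1 and 17.1 CPM in wt and 14.2, 14.4 and 13.8 CPM in heterozygotes, with no overlap (log2 fold change -0.20, SE 0.098; edgeR adjusted p = 0.682). Cxcl12 was at 46.0, 43.3 and 46.8 CPM in wt and 40.3, 37.9 and 45.5 CPM in heterozygotes, with overlap in heterozygote replicate 3 (log2 fold change -0.14, SE 0.089; edgeR adjusted p = 0.75). Bmp6 was at -0.28 (SE 0.193), and Bmp4 and Bmp5 were at 0.12 (SE 0.227) and 0.22 (SE 0.202), all with overlapping groups; Bmp4 was at -0.022 without wt replicate 1 and -0.058 without heterozygote replicate 1. Without heterozygote replicate 3 Bmp6 was at -0.12 and Bmp5 at 0.033, and without heterozygote replicate 1 Bmp6 was at -0.49. Bmp6 shares 224 exonic bases with Txndc5 on the opposite strand. Bmp5 shares 1878 with Gm26903 on the opposite strand, which had 44 counts over all libraries. The receptors of Cxcl12, Cxcr4 and Ackr3, were at -0.15 (SE 0.127) and -0.057 (SE 0.084).

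The transcription factors that specify or mark meningeal mesenchyme did not separate, with 3 of 4 lower and a median of -0.034. Foxc1 was at 8.33, 10.6 and 7.63 CPM in wt and 9.32, 7.57 and 9.23 CPM in heterozygotes (log2 fold change -0.024, SE 0.158, 95% interval -0.38 to 0.33; edgeR adjusted p = 0.984). Foxc2, Foxd1 and Twist1 were at -0.044, -0.054 and 0.27 (SE 0.206 to 0.331), with no separation in any of them. Without heterozygote replicate 2, Foxc1, Foxc2 and Foxd1 were at 0.07, 0.13 and 0.10; Foxc1 was at 0.12 without wt replicate 2 and Foxc2 at 0.022 without heterozygote replicate 3. In the 4 other libraries alone Foxc2 and Foxd1 were both at 0.14. These 4 genes held 126 to 1307 counts over all libraries, and their intervals include the median of the whole set. A difference between these factors and the matrix genes was not tested.

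The other meningeal fibroblast genes are a list from outside the members, also chosen with earlier results of these data known. They were lower for 22 of 26 genes (median -0.14), with 5 at an unadjusted p under 0.05 (background 4.61%). Ptgds, the prostaglandin D synthase of the leptomeninges, alone passed the test (log2 fold change -1.15, SE 0.109; edgeR adjusted p = 0.0238), though 0 genes passed when replicate 1 of either genotype, wt replicate 2 or heterozygote replicate 3 was left out. With a term for replicate number in the model, the edgeR adjusted p of Ptgds was 0.19, at a log2 fold change of -1.155. With the term for the pair it was 0.00145, and in the 4 other libraries alone 0.0174. DESeq2 gave Ptgds an adjusted p of 1.15e-13. With 1 library left out, the log2 fold change of Ptgds ran from -1.233 to -1.077. Pdgfra, a receptor of fibroblasts and oligodendrocyte precursors, was next after Ptgds at -0.38 (SE 0.088). Collagens were lower in 12 of 17 cases (median -0.16, 5 at an unadjusted p under 0.05, background 4.61%). Basement membrane partners and receptors were lower in 11 of 16 cases (median -0.084), with the integrin subunits Itga7 and Itgb5 at -0.62 (SE 0.152) and -0.31 (SE 0.101). Crosslinking and remodelling enzymes outside the members were lower in 10 of 17 cases (median -0.03), with the inhibitor Timp3 and the protease Adamts2, the pair of lowest unadjusted p, at -0.27 (SE 0.093) and -0.39 (SE 0.138). Of TGF-beta pathway genes 6 of 12 were lower (median 0.0096), with the ligand gene Tgfb2 at -0.29 (SE 0.096). BMP receptors, SMADs, antagonists and targets were lower in 9 of 24 cases (median 0.021), with 0 at an unadjusted p under 0.05. At that p, 3 basement membrane partners and receptors, 2 crosslinking and remodelling enzymes and 1 TGF-beta pathway gene were lower.

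**Figure D5:**
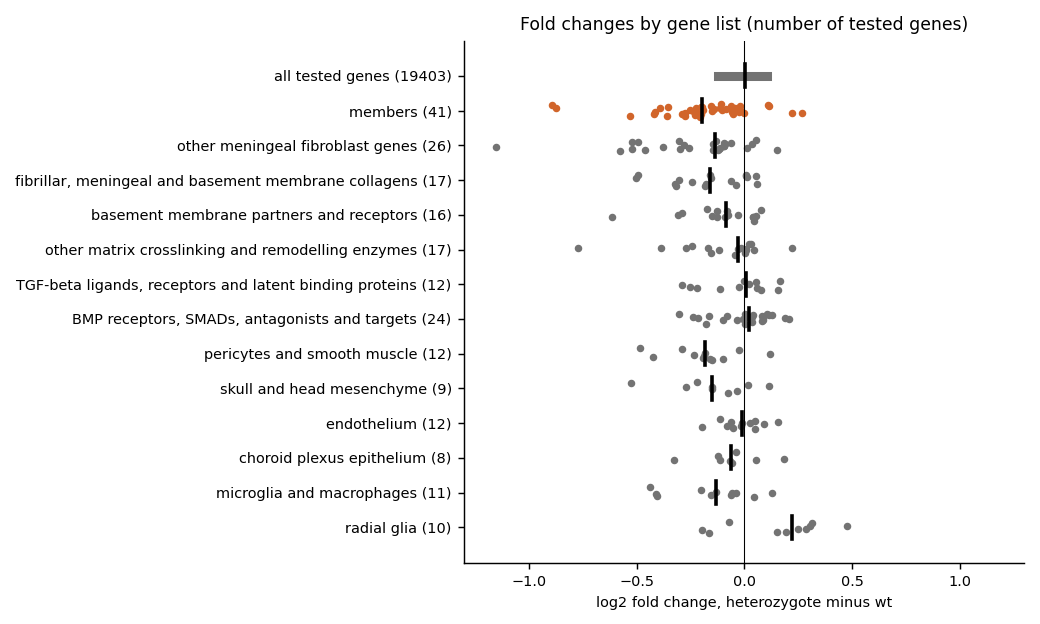
Log2 fold change (heterozygote minus wt) of each tested gene by list, with the median as a black bar and, for all tested genes, a grey bar from the lower to the upper quartile. The members, in orange, have a median of -0.20, next to -0.18 for pericytes and smooth muscle, -0.013 for endothelium and 0.22 for radial glia. The erythroid, skin and muscle, forebrain and hindbrain lists are not drawn. Of these, the erythroid list had a median of -0.46, below that of the members, with 7 of 8 genes lower. The forebrain list had a median of 0.14, with 1 of 8 lower (background 48.8%).

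Markers of other cell types were measured beside the members. Pericyte and smooth muscle markers were lower in 11 of 12 cases (median -0.18), and summed to 280 to 306 CPM in wt and 260 to 280 CPM in heterozygotes. Markers of skull and head mesenchyme were lower in 7 of 9 tested cases (median -0.15), with sums of 40.6 to 41.7 and 38.6 to 40.7 CPM; the bone markers Bglap, Ibsp and Sp7 had 15, 46 and 48 counts over all libraries. Microglial and macrophage markers were lower in 9 of 11 cases (median -0.13; 96.9 to 105 against 78.8 to 91.6 CPM). Endothelial markers were lower in 7 of 12 cases (median -0.013; 324 to 366 against 316 to 358 CPM), and choroid plexus markers in 6 of 8 (median -0.063; 392 to 468 against 314 to 462 CPM). Radial glial genes were lower in 3 of 10 cases (median 0.22; 1023 to 1151 against 1071 to 1186 CPM). Of the skin and muscle markers only Acta1 was tested, and the list summed to 1.47 to 2.29 CPM in wt and 0.96 to 2.13 CPM in heterozygotes, with Myod1 and Myog at 3 and 2 counts. At an unadjusted p under 0.05, 3 microglial and 1 pericyte and smooth muscle markers were lower (background 4.61%). At that p, 3 radial glial genes were higher (background 3.27%), and 0 skull, endothelial or choroid plexus markers differed. No marker of these lists was without a count. The part of these cells in the members' differences was not tested.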

How the data were processed

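RNA was extracted from microdissected forebrains of 3 wt and 3 Dyrk1a+/- samples. The authors deposited raw counts for each Ensembl gene, with 1 column per library, matched to samples by genotype and replicate number in the titles. Per the submitters' processing notes, the authors used bcl2fastq 2.17.1.14, HISAT2, SAMtools 1.9 and HTSeq 0.9.1 on GRCm38/mm10. The annotation release and strand setting were not given in the sources used here. The labels name polyadenylated RNA and also a ribosome-depletion kit. Symbols were found for 32888 of 33084 identifiers, and exon lengths and coordinates came from GENCODE M21 on GRCm38.

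Counts were filtered by filterByExpr (19403 genes kept), scaled by TMM (factors 0.9944 to 1.0034) and fitted with genotype alone by edgeR 4.0.16 in R 4.3.3 (quasi-likelihood test, Benjamini-Hochberg adjustment over all genes, threshold 0.05). CPM are counts scaled to an effective library size of 1000000; log2 CPM for differences within the pair and the 4 other libraries used a prior count of 2. Intervals are 95%. Single genes were also compared by exact 2-sided permutation. DESeq2 1.42.0, other filters and scalings, a replicate block, a term for the pair of libraries and leaving out libraries were alternatives. No library was a copy of another (chi-square per degree of freedom 4.86 to 32.4). Counting error alone understates the spread between these libraries, and the source of the excess was not tested.

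The members and lists were chosen with earlier results of these data known. Every member is named. Full values are given for the 12 of lowest unadjusted p and for the most abundant per length in wt in each role group. Up to 2 genes of lowest p are named in each other list, with any called and defining markers near 0. Tgfbi, Dpt and single values of other members were added after their values were seen.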

Additional observations from a re-analysis of the deposited data

How the results depend on the processing

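Over the 13 alternative settings 0 members passed the adjusted threshold of edgeR or DESeq2 in any, while 1528 genes of the main test, and 812 to 3037 under the alternatives, had an unadjusted p under 0.05. Over all genes 20 passed by DESeq2, 4 with no low-count filter, 6 with the term for the pair of libraries, 6 in the 4 other libraries alone, 0 to 5 with 1 library left out, and 0 with the replicate block (Ptgds at an adjusted p of 0.19 in edgeR), against 2 in the main test. Members lower at an unadjusted p under 0.05 numbered 13 with the term for the pair (background 8.23%) and 5 to 7 with 1 library left out (background 2.53% to 5.71%), against 7 (background 4.61%). Members with no overlap numbered 19 in the 4 other libraries alone (background 23.4%) and 14 to 19 with 1 library left out, against 12, while the share of all tested genes also rose, from 7.49% to between 9.91% and 15.5%. The median log2 fold change of members was -0.16 in the 4 other libraries alone and ran from -0.20 to -0.15 with 1 library left out, and 31 to 38 members were lower in each alternative. The replicate numbers showed no clear pairing: deviations of wt and heterozygote samples of the same number correlated at 0.201, -0.325 and -0.165. Those of wt replicate 3 and heterozygote replicate 2 correlated at 0.452, which could mask a pairing by number, so pairing was not excluded. With the replicate block the median was -0.19, 37 members were lower and 0 passed. Of 531 single-member values under the alternatives 504 kept their direction, and 27, in 11 members, changed sign; the cause was not tested. In the 4 other libraries alone Lama1 was at 0.067, Nid2 at 0.0064, Tgfbi at 0.035, Fstl1 at 0.025, Foxc2 at 0.14 and Foxd1 at 0.14. Fstl1 was at 0.0005 with DESeq2 size factors and 0.0027 by DESeq2. With 1 library left out the ranges that crossed 0 were -0.058 to 0.24 for Bmp4, -0.12 to 0.12 for Foxc1, -0.061 to 0.26 for Lum, -0.10 to 0.051 for Lama1, -0.13 to 0.004 for Lamb1, -0.11 to 0.082 for Nid2, -0.47 to 0.13 for Tgfbi, -0.024 to 0.024 for Fstl1, -0.32 to 0.13 for Foxc2, -0.22 to 0.10 for Foxd1 and -0.25 to 0.024 for Ccdc80.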

Other observations

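Among the marker lists, red cell genes split. The embryonic beta-type globin gene Hbb-y was at 4.49, 6.54 and 9.53 CPM in wt and 21.5, 22.8 and 82.5 CPM in heterozygotes (log2 fold change 2.62, SE 0.533; edgeR adjusted p = 0.483), so all 3 heterozygotes lay above the wt libraries, and it did not pass. The other 7 erythroid genes were lower, 3 of them at an unadjusted p under 0.05 (background 4.61%), with Hbb-bt at -0.55 (SE 0.184). The list summed to 750 to 949 CPM in wt and 582 to 743 CPM in heterozygotes.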
